A study of Mus musculus with 4 samples.

Results

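The 7 genes described here carry sugar across the small-intestinal epithelium and make glucose inside it. They are the sodium-glucose cotransporter Slc5a1, the glucose transporter Slc2a2, the fructose transporter Slc2a5, ketohexokinase (Khk), fructose-1,6-bisphosphatase (Fbp1), phosphoenolpyruvate carboxykinase (Pck1) and the catalytic subunit of glucose-6-phosphatase (G6pc). They were chosen by name, not by measured values, from 25289 gene columns, and each had a column in every file. Messenger RNA was counted in single epithelial cells of adult C57BL/6J mice with inDrop v2, a droplet method that gives the transcripts of each cell a barcode, after a sort for EpCAM+ CD45- TER119- DAPI- cells, 5000 per condition. Control mice were Lats1fl/fl Lats2fl/fl without Cre (2 libraries), and Lats-deleted mice were Lrig1-CreERT2 Lats1fl/fl Lats2fl/fl (2 libraries). Both groups thus carried the floxed alleles of the Hippo kinases LATS1 and LATS2, were given 2 mg tamoxifen intraperitoneally and sampled at day 7. Cre was driven by Lrig1, a gene expressed in crypt cells, and tamoxifen switches it on. Nothing in the labels ties a library to its own animal, and p-values therefore measure only the spread among libraries, which may be technical.

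Dietary starch and sucrose are cut to single sugars by disaccharidases on the brush border of enterocytes. SGLT1, the product of Slc5a1, takes up glucose and galactose together with sodium, GLUT5, the product of Slc2a5, takes up fructose, and GLUT2, the product of Slc2a2, lets sugar pass out towards the blood. Ketohexokinase traps fructose in the enterocyte as fructose-1-phosphate, and FBP1, PCK1 and G6PC are enzymes of gluconeogenesis, the route from glutamine, lactate and fructose carbon to glucose. Enterocytes are born in the crypt and move up the villus to its tip, where they are shed.

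On GRCm38, with the GENCODE M21 annotation, all 7 are protein-coding genes. Slc5a1 (ENSMUSG00000011034.6) lies on chromosome 5 from 33104219 to 33162870, and Khk (ENSMUSG00000029162.15) on the same chromosome from 30921431 to 30931248. Slc2a2 (ENSMUSG00000027690.13) lies on chromosome 3 from 28697903 to 28731359, and Slc2a5 (ENSMUSG00000028976.10) on chromosome 4 from 150119283 to 150144169. Fbp1 (ENSMUSG00000069805.10) lies on the minus strand of chromosome 13 from 62864753 to 62888282, and the other six are on plus strands. Pck1 (ENSMUSG00000027513.11) lies on chromosome 2 from 173153048 to 173159273, and G6pc (ENSMUSG00000078650.2) on chromosome 11 from 101367561 to 101377903.

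The promoters of 3 of these genes are shown. Pck1 and G6pc had the largest ratios of an upper villus position over the bottom one in controls, for G6pc on few counts at the bottom. With other position landmarks the call of Pck1 by position remained and that of G6pc was lost, as given below. Slc2a5 differed most from the others in where its counts lay. Each is the 250 bases before the RefSeq start (GRCm38.p6), 5′ to 3′ on the gene's strand. Capitals mark matches, on either strand, to 5 short motifs that were chosen after the sequences had been seen. They are the HNF1 half-site GTTAAT (in 6.43% of 32851 RefSeq promoters of this length), the HNF4 core TCCAAAG (4.70%), the CDX core TTTATG (10.8%), the cAMP response element TTACGTCA (0.447%) and the TATA box core TATAAA (12.4%).
Pck1, chr2:173152823-173153072, plus strand: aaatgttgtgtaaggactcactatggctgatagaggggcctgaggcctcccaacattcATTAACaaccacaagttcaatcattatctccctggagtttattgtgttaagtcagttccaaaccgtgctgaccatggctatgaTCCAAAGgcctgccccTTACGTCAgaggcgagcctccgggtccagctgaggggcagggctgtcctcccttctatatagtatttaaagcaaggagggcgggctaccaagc
G6pc, chr11:101367466-101367715, plus strand: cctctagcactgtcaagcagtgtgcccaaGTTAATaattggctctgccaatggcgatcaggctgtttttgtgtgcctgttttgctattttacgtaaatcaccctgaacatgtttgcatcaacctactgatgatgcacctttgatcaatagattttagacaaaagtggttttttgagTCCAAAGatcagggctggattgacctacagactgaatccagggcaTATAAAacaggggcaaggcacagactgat
Slc2a5, chr4:150119094-150119343, plus strand: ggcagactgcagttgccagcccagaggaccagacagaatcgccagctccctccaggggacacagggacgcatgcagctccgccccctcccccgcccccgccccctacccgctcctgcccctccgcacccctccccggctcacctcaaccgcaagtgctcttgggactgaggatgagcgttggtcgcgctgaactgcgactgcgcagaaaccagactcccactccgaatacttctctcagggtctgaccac

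The Pck1 window holds the HNF1 half-site on the reverse strand with its first letter 192 bases before the start, the HNF4 core at 109 bases and the cAMP response element at 93 bases. The G6pc window holds the HNF1 half-site at 221 bases, the HNF4 core at 74 bases and the TATA core at 29 bases. Among the other members, Khk has 1 match, the HNF1 half-site at 60 bases, and Slc5a1, Slc2a2 and Fbp1 have none, as does Slc2a5. The windows also differ in composition, with 43.2% G and C in G6pc and 50.8% in Pck1 against 66.4% in Slc2a5 and a median of 52.4% over all promoters. A match describes the letters only.

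A barcode was kept as a cell from 1000 counts and 300 genes upwards, with no more than 30% of its counts from mitochondrial genes. The control libraries held 774 and 515 cells and the Lats-deleted libraries 726 and 1289. The files' totals ran from 2247269 to 9191916 counts, and median counts per kept cell were 1708 and 1995 in controls against 3715.5 and 3848 after deletion. The median mitochondrial share also differed by group, at 9.55% and 6.84% against 3.64% and 3.90%, and the part of depth and of this share in the results below was not tested beyond the thinned counts given. Pairs of libraries shared 4 to 12 kept barcodes. Lats1 was at 23.0 and 34.6 CPM (counts scaled to the size of the library) in controls and at 6.83 and 9.12 CPM after deletion, while Lats2 was at 9.07 and 10.4 against 26.8 and 19.8 CPM, and which exons were deleted is not given in the sources used here. Enterocyte-like cells, named from 16 marker genes with the 7 genes left out of the clustering, were 81.8% and 78.6% of control cells (633 and 405) and 5.51% and 1.63% of Lats-deleted cells (40 and 21). Counts of those 16 markers were 2.99% and 2.95% of all counts in controls and 0.171% and 0.0817% after deletion. Lats-deleted library 2 stood apart with 46179 counts of stomach markers, against 15 to 34 in the other libraries. An unnamed cluster of 366 cells, led by Ctrb1, Amy1, Try5 and Pnliprp1, held 1 and 0 control cells and 185 and 180 Lats-deleted cells. Its part in the sums of all kept cells was not tested. Xist was at 9.35 and 6.51 CPM in controls and at 640 and 505 CPM after deletion, so sex and genotype cannot be told apart here.

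In the sum of all kept cells, every one of the 7 genes fell after Lats deletion, 6 of them with a log2 fold change of -4.76 or lower. Pck1, the enzyme that commits carbon to gluconeogenesis, had the largest fold change, and Slc2a5, the fructose transporter, had the smallest. Scaled levels (CPM with edgeR's TMM factors) were compared with edgeR's quasi-likelihood test, fitted on 12561 genes, with Benjamini-Hochberg adjustment and a threshold of 0.05. The 7 of 7 that passed stood against a background of 30.8% of all genes tested in either direction and 15.5% lower. In such sums, fewer enterocytes and less RNA per enterocyte cannot be told apart.

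Among the transporters, Slc5a1 stood at 1017 and 940 CPM in controls (here and below, library 1 before library 2), against 22.5 and 16.3 CPM after deletion. Slc2a2 was at 422 and 385 CPM against 10.4 and 8.0 CPM. The groups lay far apart for both, with log2 fold changes of -5.66 (SE 0.297) and -5.46 (SE 0.271), each at an adjusted p of 0.000183 in edgeR. Slc2a5 was at 102 and 127 CPM against 19.2 and 14.9 CPM, again without overlap (log2 fold change -2.75, SE 0.249, adjusted p = 0.000507 in edgeR). The Slc2a5 change was thus less than the change of the other uptake genes on the log2 scale, though that difference between genes was not tested.

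Of the enzymes, Khk was at 373 and 325 CPM in controls and at 13.9 and 11.8 CPM after deletion (log2 fold change -4.76, SE 0.251). Pck1 was at 308 and 250 CPM against 3.29 and 4.64 CPM (log2 fold change -6.10, SE 0.300). Both had an adjusted p of 0.000183 in edgeR, and neither showed overlap of the groups. Fbp1, whose product removes a phosphate from fructose-1,6-bisphosphate, was at 100.5 and 67.6 CPM against 2.78 and 0.960 CPM (log2 fold change -5.58, SE 0.474, adjusted p = 0.000418 in edgeR). G6pc, which releases free glucose, was at 40.5 and 57.2 CPM against 1.26 and 0.960 CPM (log2 fold change -5.43, SE 0.388, adjusted p = 0.000264 in edgeR). The low values of these last genes rest on few counts, 11 and 6 of Fbp1 and 5 and 6 of G6pc in the Lats-deleted libraries.

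Non-overlap by itself is common in these libraries, since 68.8% of all genes tested had groups that did not overlap, 33.2% with the Lats-deleted libraries lower. All 7 genes passed the threshold in each of 14 settings, those without each library in turn and without cells holding stomach markers included, at an adjusted p of at most 0.0156. With plain library totals the median log2 fold change of all genes moved from 0.05 to 0.30 and the split of calls from 1923 higher and 1946 lower to 2759 and 1577. The 7 genes lay far below either median.

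**Figure D1:**
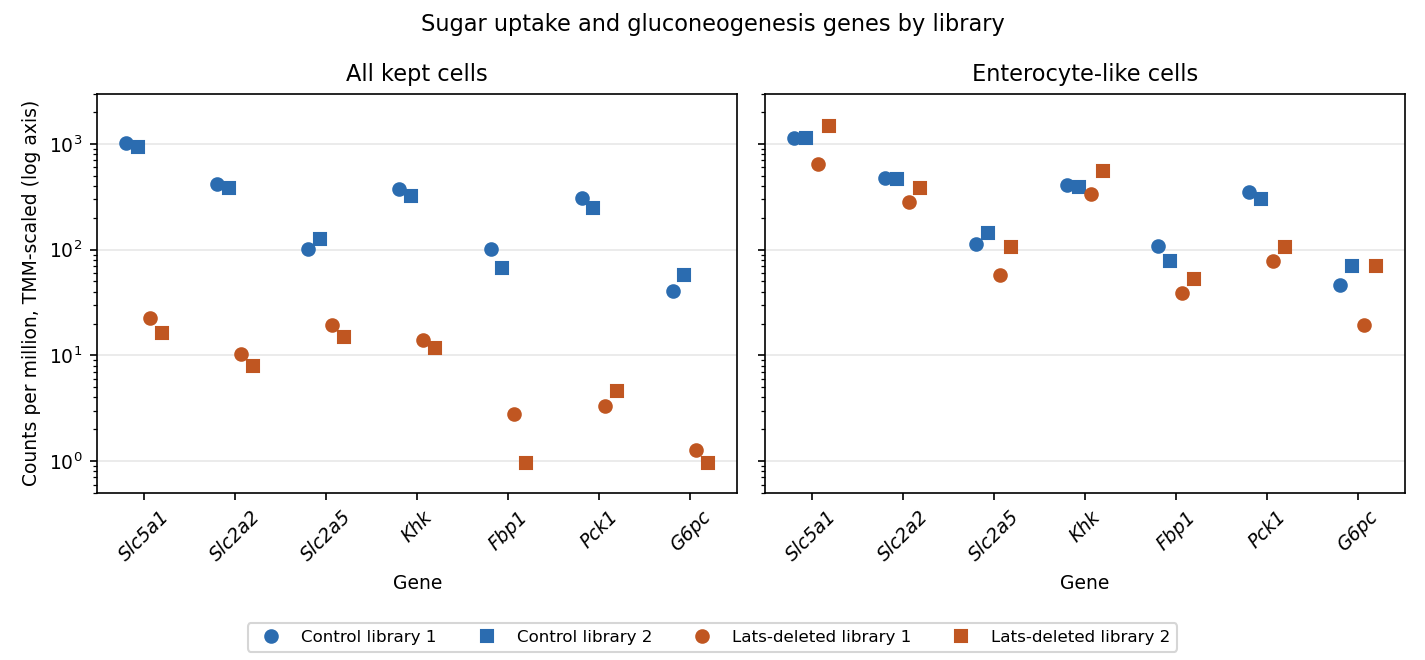
TMM-scaled CPM of the 7 genes in each library on a log axis, summed over all kept cells (left) and over enterocyte-like cells (right), with 1 point per library. On the left all Lats-deleted points lie below all control points, and on the right the groups overlap for Slc5a1, Khk and G6pc.

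The fall was also visible as fewer cells with any count of these genes. After each cell was thinned to 1000 counts, 71.1% and 68.9% of control cells held at least 1 count of at least 1 of the 7 genes, against 8.26% and 3.57% of Lats-deleted cells. Unthinned, the shares were 80.0% and 80.4% against 18.9% and 14.1%. The groups do not overlap, and an exact two-sided permutation test over the 4 libraries gave p = 0.33, the smallest it can give. Slc5a1 alone was found in 49.4% and 48.3% of control cells (95% exact binomial intervals 45.8 to 52.9% and 44.0 to 52.8%) and in 3.17% and 1.47% of Lats-deleted cells (2.02 to 4.72% and 0.890 to 2.29%). Intervals cover counting error only.

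Droplets pick up free RNA, so these shares have a background. In control cells of a mixed secretory cluster, led by the goblet genes Zg16, Muc2 and Tff3 and by a larger number of Paneth defensin and lysozyme genes, 27.3% (15 of 55) and 17.9% (7 of 39) held a count of any of the 7 genes after thinning, at unthinned median depths of 1874 and 2422 counts. In enterocyte-like cells, at median depths of 1657 and 1936 counts, the shares were 82.1% and 82.7%. Barcodes with under 500 counts held Slc5a1 at 808 and 887 CPM in controls and at 219 and 12.7 CPM after deletion. Slc5a1 was thus low in the low-count barcodes of Lats-deleted library 2 as well.

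Within enterocyte-like cells, the few that remained after deletion held the transporters and Khk at levels that did not pass the test against controls, while Pck1 was lower. Pck1 was at 347 and 302 CPM in controls and at 77.6 and 104.9 CPM in Lats-deleted enterocyte-like cells (log2 fold change -1.89, SE 0.363, adjusted p = 0.00116 in edgeR). It was 1 of 7 that passed, where 0.201% of 5958 genes tested passed in either direction (12 genes, with 426 at an unadjusted p under 0.05) and 0.151% were lower. The Lats-deleted values rest on 8 and 6 counts of Pck1 in 40 and 21 cells. The Pck1 call was lost with DESeq2 (adjusted p = 0.239), with cells thinned to 1000 counts (0.406) and without control library 1 (0.120), and its adjusted p ranged from 3.26e-05 to 0.406 over the 13 settings. Its log2 fold change lay between -2.30 and -1.40 in all of them.

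The other six genes gave mixed values in that class. Slc5a1 was at 1127 and 1137 CPM in controls and at 650 and 1486 CPM after deletion, so the control values lay between the Lats-deleted ones (log2 fold change -0.15, SE 0.231, adjusted p = 0.979 in edgeR). Without Lats-deleted library 2 its log2 fold change was -0.88 with an adjusted p of 0.0357 in edgeR, and over all settings the adjusted p ranged up to 1.00. Khk was at 411 and 392 CPM against 340 and 559 CPM (log2 fold change 0.09, SE 0.254, adjusted p = 0.987 in edgeR), which also enclosed the control values.

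Slc2a2 was at 476 and 470 CPM in control enterocyte-like cells and at 281 and 385 CPM after deletion, without overlap (log2 fold change -0.55, SE 0.263, adjusted p = 0.653 in edgeR). Slc2a5 was at 113 and 143 against 58.2 and 104.9 CPM (-0.76, SE 0.435), and Fbp1 at 109 and 78.1 against 38.8 and 52.4 CPM (-1.1, SE 0.540). Neither passed, with adjusted p of 0.756 and 0.673 in edgeR, and 39.2% of genes tested had groups that did not overlap, 22.6% with Lats-deleted lower. G6pc was at 46.3 and 69.6 CPM against 19.4 and 69.9 CPM, which overlapped (-0.59, SE 0.647, adjusted p = 0.957 in edgeR). With 40 and 21 Lats-deleted cells, differences of these sizes did not pass. The regenerative marker Clu, at 0.798 and 4.28 CPM in control enterocyte-like cells, was at 38.8 and 262 CPM in the Lats-deleted ones. Of the other cell types' markers, 1 of 6 goblet genes tested passed, Zg16, which was lower (307 and 275 against 29.1 and 17.5 CPM, log2 fold change -3.54, adjusted p = 1.13e-06 in edgeR). Of 2 leukocyte genes tested, Cd74 passed, lower as well (330 and 165 against 87.3 and 0 CPM, log2 fold change -2.17, adjusted p = 0.00906 in edgeR). The part of these markers in the Pck1 difference was not tested.

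The genes were also counted together in single cells. In enterocyte-like cells thinned to 1000 counts, 3 or more of the 7 genes were found in 23.9% and 23.2% of control cells and in 12.5% (5 of 40) and 19.0% (4 of 21) of Lats-deleted cells. No cell held more than 5 of them at that depth. None of the 7 was found in 17.9% and 17.3% of control enterocyte-like cells and in 30.0% and 4.76% of the Lats-deleted ones, so the libraries of the latter group lay on both sides of the controls.

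Along the control villus, Pck1 and G6pc had the largest ratios of bin 4 over bin 1 among the 7 genes, and Khk had its highest level in bin 2. The ratio was 7.77 in library 1 and 25.8 in library 2 for Pck1, the latter on 6 counts in bin 1. It was 7.39 and 7.31 for G6pc, on 4 counts in bin 1 of each library. For Slc5a1 it was 2.2 and 3.54, and for Khk 0.787 and 1.5. In library 1 the ratios of Pck1 and G6pc were thus close, and in library 2 they were far apart. A villus position score was computed for each control enterocyte-like cell as the share of 13 tip landmark genes in its counts of those and 10 bottom landmark genes, none of which is a member. Cells were split within each library into 5 bins of equal size, from 1 (bottom) to 5 (tip), and levels are plain CPM. An edgeR quasi-likelihood F test over the bins, with the library as a block, called 5 of the 7 genes, where 30.3% of 4660 genes tested were called. Bins of a library share that library, so the test measures spread between bins of 2 libraries.

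Pck1 rose from bin 1 to bin 4, at 70.5, 338, 515 and 548 CPM in control library 1 and at 24.5, 97.1, 382 and 632 CPM in control library 2. In bin 5 it was at 232 CPM in library 1 and at 527 CPM in library 2. The libraries thus shared the rise and differed in the size of the drop at the tip (adjusted p over the 5 bins = 3.65e-11 in edgeR). G6pc was at 14.1, 40.2, 31.7, 104 and 35.3 CPM from bin 1 to bin 5 in library 1 and at 16.4, 53.9, 97.0, 119 and 85.7 CPM in library 2 (adjusted p = 0.000414 in edgeR). Its highest bin was bin 4 in both libraries, as for Pck1 and Slc5a1. Fbp1 also had its highest value in bin 4, at 150 and 119 CPM against 81.1 and 53.1 CPM in bin 1, but did not pass (adjusted p = 0.0928 in edgeR).

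Slc5a1 was at 666, 1186, 1326, 1466 and 832 CPM from bottom to tip in control library 1 and at 511, 1003, 1437, 1810 and 1193 CPM in control library 2 (adjusted p = 1.38e-08 in edgeR). Slc2a2 was at 236, 491, 570, 671 and 349 CPM in library 1 and at 241, 496, 736, 649 and 297 CPM in library 2 (adjusted p = 2.21e-08 in edgeR). Both glucose transporters were lowest in bin 1 and highest in bins 3 or 4, with a drop at the tip. Slc2a5 was at 95.2, 109, 123, 143 and 78.5 CPM in library 1 and at 65.4, 151, 234, 159 and 138 CPM in library 2, and missed the threshold (adjusted p = 0.0512 in edgeR, 0.0425 to 0.922 over the alternatives).

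Khk, the entry enzyme of fructose breakdown, had its highest value in bin 2 in both libraries and its lowest in bin 5. It was at 377, 551, 479, 297 and 287 CPM from bottom to tip in library 1 and at 302, 610, 405, 455 and 185 CPM in library 2 (adjusted p = 0.000577 in edgeR). In contrasts chosen after these levels had been seen, 5 of the 7 genes were higher in bin 3 than in bin 1, where 6.87% of genes tested were. These were Pck1 (log2 fold change 3.24, SE 0.375), G6pc (1.97, SE 0.588), Slc2a2 (1.48, SE 0.207), Slc5a1 (1.26, SE 0.180) and Slc2a5 (1.1, SE 0.326), with adjusted p from 1.13e-09 to 0.0164 in edgeR. From bin 3 to bin 5, Slc2a2 (-0.91, SE 0.207, adjusted p = 0.000719) and Khk (-0.80, SE 0.242, adjusted p = 0.0141) fell in edgeR, 2 of 7 against 9.68% of genes. Pck1 and G6pc remained above their bin 1 level at the tip, by 2.98 (SE 0.392) and 1.96 (SE 0.601), as did Slc5a1 (0.85) and Slc2a2 (0.56), 4 of 7 against 17.3% of genes.

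The position calls depend on the landmarks. With the apolipoprotein genes left out of the tip landmarks, Pck1 (adjusted p = 2.42e-05 in edgeR) and Khk (0.00271) still passed, and Slc5a1 (0.190), Slc2a2 (0.0671) and G6pc (0.647) did not. Khk was then highest in bin 2 in library 1 (493 CPM) but in bin 3 in library 2 (541 CPM, against 358 CPM in bin 2), the bin where Slc5a1, Slc2a2 and Fbp1 were highest in that library. Pck1 was at 197, 305, 407, 548 and 198 CPM in library 1 and at 121, 128, 255, 525 and 577 CPM in library 2. G6pc was at 26.2 and 51.9 CPM in bin 1 and at 59.5 and 71.7 CPM in bin 4. With these landmarks Slc5a1 was lowest in bin 5 in library 1 (814 CPM) and in bin 2 in library 2 (909 CPM). In library 2 it did not drop at the tip, at 1140 CPM in bin 4 and 1270 CPM in bin 5. Of the cells, 116 of 633 and 71 of 405 had a score within 0.02 of a boundary between bins.

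**Figure D2:**
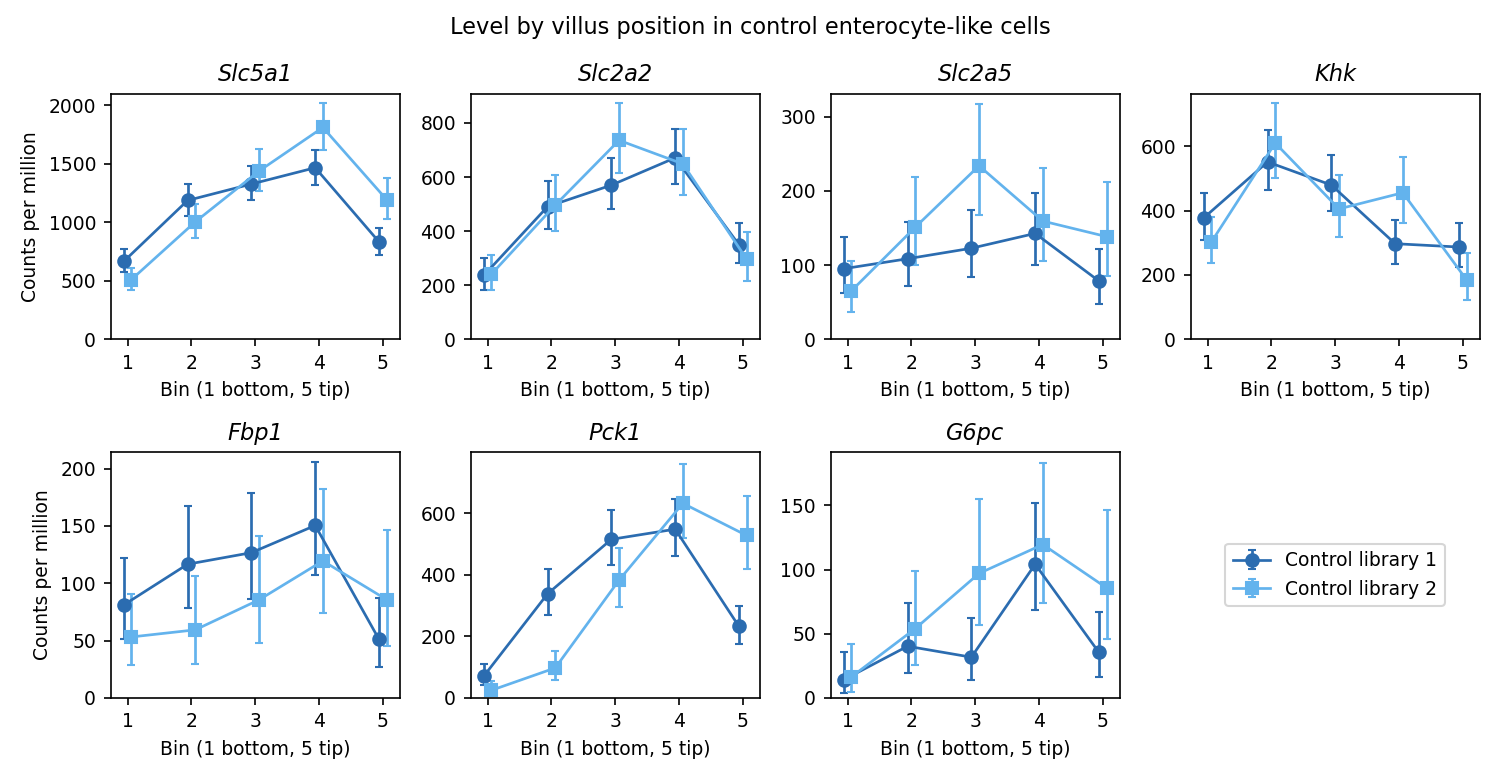
Plain CPM (vertical axis from 0) of the 7 genes by villus position bin (1 bottom, 5 tip) in enterocyte-like cells of the 2 control libraries, with exact 95% Poisson intervals as bars. Pck1 rises from 70.5 and 24.5 CPM in bin 1 to 548 and 632 CPM in bin 4, and Khk is highest in bin 2 in both libraries.

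Lats-deleted enterocyte-like cells scored nearer the villus bottom, and this moved with the Pck1 difference. By the controls' bin boundaries, 38.4% and 42.5% of control enterocyte-like cells lay in bins 1 and 2, against 60.0% and 52.4% of the Lats-deleted ones, and median scores were 0.367 and 0.354 against 0.278 and 0.275. Zg16 and Cd74, lower in the Lats-deleted class like Pck1, were highest in bin 5 in controls, at 1107 and 840 and at 880 and 551 TMM-scaled CPM. At the control mean of the whole class, the Lats-deleted cells would have held 33.0 and 17.5 counts of Pck1. At control levels of the same bins, they would have held 26.3 and 16.4 counts. Observed were 8 and 6 (95% exact Poisson intervals 3.45 to 15.8 and 2.20 to 13.1). Those intervals lie below the position-matched values in both libraries, but they cover counting error only. The position-matched values were given no error, although the control libraries differed within bins (Pck1 in bin 2 at 338 and 97.1 CPM). The part of position in the Pck1 difference was not tested. For Slc5a1, 67 counts were observed against 105 in library 1 and 85 against 62.0 in library 2, so the libraries lay on opposite sides. For Slc2a2 the observed counts were 29 against 43.1 and 22 against 27.7, and for Khk 35 against 43.6 and 32 against 25.3.

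As a description of likeness, Pearson's r of log2(CPM + 50) was taken over the 10 sums of control library and bin, among 1542 genes of at least 100 CPM that are no landmarks. These points share libraries, depth and the position score. Slc5a1 was most like Pls1 (0.976) and Lct (0.963), and Slc2a2 most like Cyp4f13 (0.966), Iqgap2 (0.963) and Cat (0.949). Pck1 was most like Ggt1 (0.964), Leap2 (0.956) and Sco2 (0.954), and Khk most like Cpox (0.925), Reep6 (0.899) and Gstp2 (0.897). The nearest genes to Slc2a5 were Naprt (0.940), Ank (0.885) and Mttp (0.863), and to Fbp1 they were Slc11a2 (0.895), Clec2h (0.843) and Dpyd (0.820). G6pc had 123 counts in these sums, under the minimum of 200, and was left out.

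Slc2a5 differed from the other members in where its counts lay. In the control libraries 2.74% and 8.84% of its counts were outside enterocyte-like cells, and in the Lats-deleted libraries 92.1% and 93.5% were (70 and 87 counts). For Slc5a1 the same shares were 3.16% and 2.12% against 24.7% and 16.7%. Shares in the Lats-deleted libraries were 29.3% and 56.0% for Slc2a2, 36.4% and 56.8% for Khk, 38.5% and 79.3% for Pck1, 63.6% and 50% for Fbp1 and 60.0% and 33.3% for G6pc. The shares follow the number of enterocyte-like cells as well as the level outside them.

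Outside enterocyte-like cells, Slc2a5 was at 13.1 and 44.0 CPM in controls and at 20.2 and 15.1 CPM after deletion, so the groups overlapped. Slc5a1 was there at 151 and 77.8 CPM in controls and at 6.36 and 2.95 CPM after deletion, without overlap. Its control values were below those of the barcodes with under 500 counts. In Lats-deleted cells Slc2a5 was spread over several clusters. It was at 21.1 and 24.8 CPM (43 and 25 counts) in the largest, an unnamed cluster led by Plat, Tgfb2 and Ankrd1, and at 52.6 and 115 CPM (10 and 4 counts) in a stromal-like cluster of 72 and 8 cells led by C3 and Dcn, present although the sort took EpCAM+ cells, in which Slc5a1 and Pck1 had 0 counts in both libraries. Barcodes with under 500 counts held Slc2a5 at 21.6 and 7.90 CPM after deletion, and free RNA as a source was not tested further.

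Of all counts of the 7 genes, Slc2a5 made up 4.31% and 5.92% in controls and 26.2% and 25.8% after deletion, without overlap (exact two-sided permutation p = 0.33, the smallest possible). Within enterocyte-like cells its share was 4.31% and 5.53% against 3.97% and 3.80%, each of the last on 6 counts of Slc2a5. The larger share in the whole libraries was not seen inside the enterocyte-like class.

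**Figure D3:**
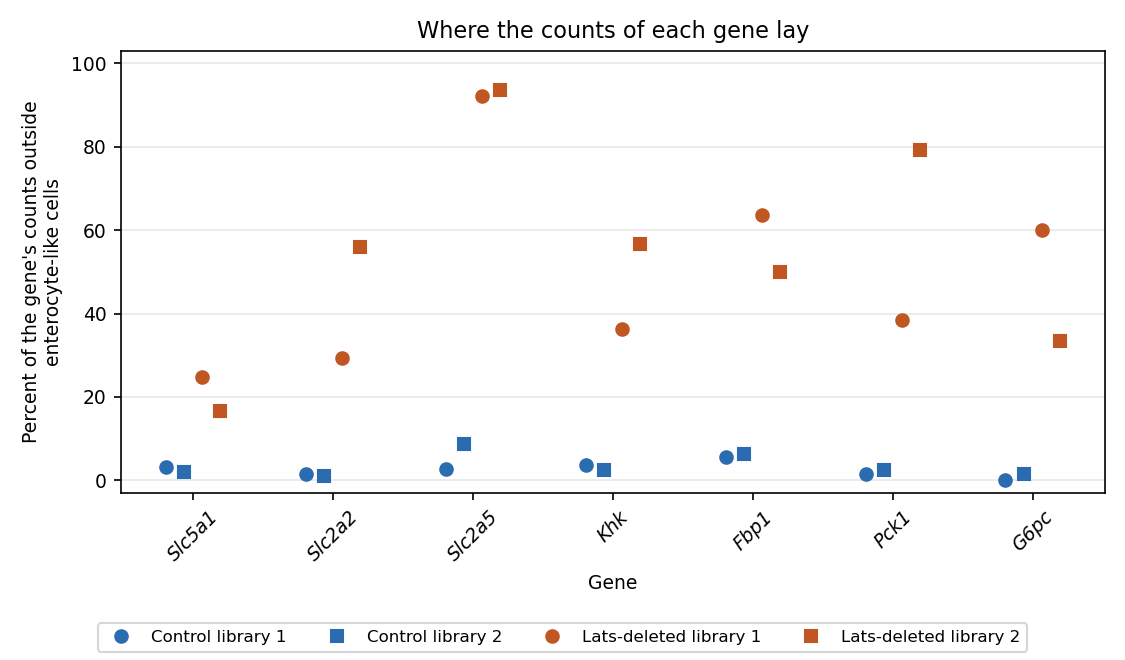
Percent of each gene's counts that lay outside enterocyte-like cells in each library (vertical axis 0 to 100), with 1 point per library. Slc2a5 reaches 92.1% and 93.5% in the Lats-deleted libraries, and no gene exceeds 8.84% in the controls.

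Set against the enterocyte content of each library, the 7 genes together did not separate by group. Per 1000 counts of the 16 enterocyte markers, they had 70.6 and 68.4 counts in controls and 47.6 and 75.7 after deletion (ratio of means 0.887, exact two-sided permutation p = 1). That sum includes Slc2a5. Without it, the members had 3241 and 2337 counts in controls, on 47956 and 36298 marker counts. After deletion they had 214 and 267 counts, on 6090 and 4758 marker counts. Relative to all 16 markers, both Lats-deleted libraries then lay below both controls. This did not hold without the apolipoprotein markers, as given at the end of this paragraph. Slc2a5 had 3.04 and 4.05 counts against 12.5 and 19.5 (ratio 4.51, exact p = 0.33, the smallest possible), and Pck1 9.22 and 7.96 against 2.13 and 6.10 (ratio 0.479, exact p = 0.33). Slc5a1 had 30.4 and 29.9 counts against 14.6 and 21.4 (ratio 0.598, exact p = 0.33), and Khk 11.2 and 10.3 against 9.03 and 15.6 (ratio 1.14, exact p = 1). With these 16 markers, Slc2a5 was the only member whose Lats-deleted libraries both lay above the controls. Any gene that fell less than the markers rises on this measure. In all kept cells the markers had a median log2 fold change of -5.30, against -2.75 for Slc2a5. The share of all genes that rose on this measure was not counted. Without the apolipoprotein markers Khk also lay above the controls in both Lats-deleted libraries, at 17.4 and 28.8 counts against 16.6 and 14.7 (ratio 1.47, exact p = 0.33). Marker counts were then 32140 and 25564 in controls and 3168 and 2569 after deletion. Relative to these, the members without Slc2a5 lay below both controls in Lats-deleted library 1 and above both in Lats-deleted library 2.

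Other sugar-handling genes differed by list in the sum of all kept cells, from 4 of 4 disaccharidases lower to 2 of 6 genes of glutamine supply, where 15.5% of genes tested fell and 15.3% rose. The disaccharidases had a median log2 fold change of -5.26 against 0.05 over all genes tested. These were lactase (Lct, -5.17), maltase-glucoamylase (Mgam, -4.79), sucrase-isomaltase (Sis, -5.35) and trehalase (Treh, -5.96), of which Lct, Sis and Treh are also among the enterocyte markers. Their adjusted p in edgeR ran from 0.000184 to 0.000292. Among 9 other sugar transporters tested 4 fell and 1 rose (median -1.62). The inositol transporter Slc5a11 (-4.55), Slc5a4b (-3.03) and Slc5a9 (-2.29) fell, and Slc2a1, the basal glucose transporter GLUT1 of most cells, rose by 2.19 (SE 0.316, adjusted p = 0.00298 in edgeR), from 11.2 and 18.2 CPM to 75.1 and 57.8 CPM. That call was lost without control library 1, at an adjusted p of 0.0525.

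Of 11 genes of fructose, sorbitol and galactose metabolism, 8 fell and none rose (median log2 fold change -1.29). Triokinase (Tkfc, -3.01), sorbitol dehydrogenase (Sord, -3.24) and galactose mutarotase (Galm, -3.83) were among them. Of 13 other gluconeogenesis genes, 8 fell and 1 rose (median -1.58). The glucose-6-phosphate carrier Slc37a4 (-4.06), glycerol-3-phosphate dehydrogenase (Gpd1, -3.85) and mitochondrial malate dehydrogenase (Mdh2, -2.76) fell. The 1 that rose was Pck2, the mitochondrial isoenzyme of Pck1, named after its values were seen, from 10.5 and 5.2 CPM to 24.8 and 23.4 CPM (log2 fold change 1.58, SE 0.379, adjusted p = 0.0206 in edgeR). It missed the threshold without control library 1 (2.24, adjusted p = 0.0513), without control library 2 (1.22, adjusted p = 0.122) and with cells thinned to 1000 counts (0.88, adjusted p = 0.190).

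The supply of glutamine carbon was divided, with 2 of 6 genes lower and 1 higher (median log2 fold change 0.11). Alanine transaminase (Gpt, -4.91) and ornithine aminotransferase (Oat, -2.61) fell, the glutamine transporter Slc1a5 rose by 1.96, and glutamate dehydrogenase (Glud1, 0.38, adjusted p = 0.216 in edgeR) did not pass. In the list of the sodium gradient and brush-border scaffold, the sodium pump subunit Atp1b1 (-1.08) and the scaffold Slc9a3r1 (-1.55) fell, while Pdzk1 (-0.87, adjusted p = 0.322 in edgeR) did not pass. Without control library 1 both calls were lost, at adjusted p of 0.181 for Atp1b1 and 0.0687 for Slc9a3r1, and Atp1b1 also missed without control library 2 (0.147). Pdzk1 passed without Lats-deleted library 1, with a log2 fold change of -2.30, being at 90.0 CPM in that library and 20.6 CPM in the other, and Glud1 passed without Lats-deleted library 2 (0.49). Of 15 regulators, 8 fell and 2 rose (median -1.0), led by the carbohydrate-response factor Mlxipl (-3.17), the coactivator Ppargc1a (-2.45) and the nuclear receptors Ppara (-3.95) and Hnf4g (-2.97). As for the members, the enterocyte markers moved with these lists, with 16 of 16 lower.

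**Figure D4:**
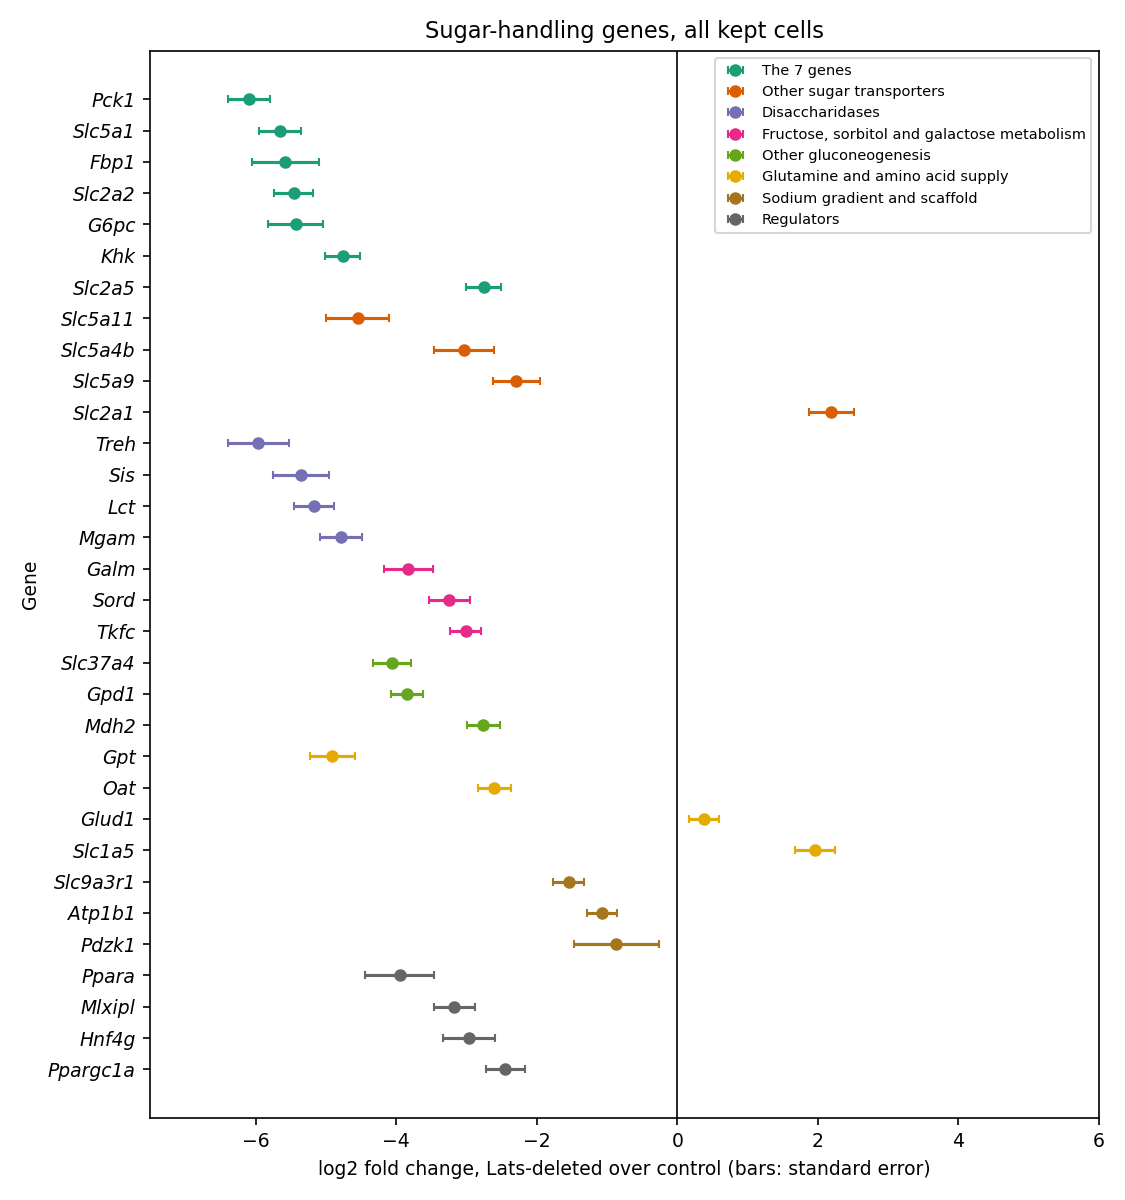
Log2 fold changes (horizontal axis, Lats-deleted over control, bars 1 SE) of the 7 genes and up to 4 genes of each pathway list with the smallest p, in the sum of all kept cells, less those not reported here. Slc2a1, Slc1a5 and Glud1 lie above 0, of which Glud1 did not pass the test, and Slc2a5 has the smallest change of the 7 genes.

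Inside enterocyte-like cells no gene of any of these 7 lists passed the threshold, with list medians of the log2 fold change from -0.24 to 0.22 and -0.03 over all genes tested. By villus position in controls, 4 of 4 disaccharidases, 9 of 11 other gluconeogenesis genes and 5 of 10 genes of fructose, sorbitol and galactose metabolism varied over the bins, against the background of 30.3%. Of the regulators 1 of 12 did, which was Hnf4a (adjusted p = 0.0298 in edgeR), named after its values were seen. The other sugar transporters gave 2 of 3 and the glutamine list 2 of 4. In the list of the sodium gradient and scaffold, Pdzk1 (adjusted p = 4.49e-09 in edgeR) and Slc9a3r1 (0.00159) varied over the bins. Atp1b1 did not pass (0.0890). Oat ran against the Pck1 profile, at 499, 274, 120, 76.1 and 21.0 TMM-scaled CPM from bottom to tip in library 1 and at 385, 324, 90.1, 79.0 and 60.5 CPM in library 2 (adjusted p = 1.59e-14 in edgeR). Lct, named above for its likeness to Slc5a1, was at 162, 491, 858, 765 and 455 TMM-scaled CPM in library 1 and at 159, 484, 1031, 1167 and 585 CPM in library 2.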

How the data were processed

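Each library was deposited as 1 table of counts, cells in rows and gene symbols in columns, per the file headers. The values were whole and never negative. The submitters' processing notes name RSEM 1.3.0, Bowtie 1.1.1.1, SAMtools 1.3.1 and mm10 in no order, and whether molecular identifiers were counted is not given in the sources used here. The 7 genes, the gene lists and the tests were chosen with earlier results of these data known. Named genes are the 7, up to 4 genes of each pathway list with the smallest p in the sum of all kept cells, and the 3 genes of highest likeness; some of these are not reported here.

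Kept cells were scaled to 10000 counts, and 2000 variable genes without the 7, 30 principal components, 15 neighbours and a resolution of 1 went into Leiden clustering (scanpy 1.11.5, leidenalg 0.10.2). A cluster took the name of a marker list with at least 3 markers raised 1.5-fold and found in 10% of its cells. No doublet caller was run, so doublets remain. Counts summed per library passed filterByExpr and TMM scaling and were tested with edgeR 4.0.16 (R 4.3.3, quasi-likelihood, Benjamini-Hochberg, all genes). Position bins needed at least 10 landmark counts per cell. The fits were tested on simulated data. Alternatives were DESeq2 1.42.0, other factors and filters, thinned cells, a replicate block, each library left out and other landmarks, plus all barcodes of the files, chosen after seeing the data.

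Plain CPM use the total of the summed counts, and precision follows the depth, with median counts per cell from 1708 to 3848. No column matched the symbol Slc2a7, which was not analysed here. Dak and Gyk are older symbols of Tkfc and Gk, which were analysed under those names.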

Additional observations from a re-analysis of the deposited data

How the results depend on the processing

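The 7 of 7 calls in all kept cells, and the direction of each of the 7 genes there, were the same in all 13 alternatives, while the number of genes called fell from 3869 to 1236 and 1478 without control library 1 or 2. In enterocyte-like cells, where 1 of 7 passed, DESeq2 called 0, thinned cells gave 0, and leaving out 1 library gave 0 to 2; DESeq2 left 161 genes at an unadjusted p under 0.05 and thinned cells left 269. Genes called in that class numbered 12, against 3 with DESeq2, 4 with at least 2000 counts per cell, 5 when thinned, 31 with cells classed by marker share, 56 with no filter and 2 to 48 without 1 library. Leaving out 1 library gave log2 fold changes in that class of -0.88 to 0.26 for Slc5a1, -0.32 to 0.35 for Khk and -1.62 to 0.16 for G6pc, which was at -2.60 with at least 2000 counts per cell against -0.59 as reported. Khk was also at -0.18 with no filter and at -0.27 with cells classed by marker share. Members called by villus position numbered 5, and 2 without the apolipoprotein landmarks. The ratio of the 7 genes per enterocyte marker count, 0.887, was 1.14 without the apolipoprotein markers and 0.685 to 1.09 without 1 library. That ratio for Khk, 1.14, ran from 0.841 to 1.45 without 1 library. The mean of bin 4 over bin 1 of Khk was 1.15, and 0.787 and 1.5 in the single control libraries. The cause of these shifts was not tested.

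Libraries of the groups share replicate numbers, but nothing in the labels ties them. The replicate block kept 7 of 7 calls in all kept cells (4162 genes called) and 1 of 7 in enterocyte-like cells (19 genes). Deviations of same-numbered libraries correlated across genes at 0.0735 and 0.0167, so the numbers are not taken as pairs. Depth limits Fbp1 and G6pc most, and they were not tested in some of the fits of enterocyte-like cells with 1 library left out.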
